A study of Homo sapiens with 18 samples.

Results

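COLO 201, a human colon adenocarcinoma line that grows partly unattached, was one of 3 lines in a study of MUC1 silencing. The samples described here are 6 of the 18 in the series, and they are the 6 columns of the authors' COLO 201 table, 3 headed as with doxycycline and 3 as without it. All 6 came from cells with a puromycin-selected tetracycline-responsive MUC1 hairpin, cultured in triplicate. The vehicle arm therefore carried the same hairpin as the treated arm, uninduced. The treated arm received 500 ng/ml doxycycline and the vehicle arm 0.1% DMSO, in medium with 10% serum. A hairpin without a human target, with doxycycline added, was not analysed here, so effects of MUC1 loss, of the hairpin itself and of doxycycline cannot be told apart. Nothing in the labels says that the 3 cultures of an arm were set up on separate occasions or came from more than 1 transduced pool, so the p-values measure the spread between these cultures only.

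MUC1 is a membrane mucin made as a single chain that splits into an outer part, heavily decorated with O-linked sugars, and a smaller membrane-spanning C-terminal part. The C-terminal part can reach the nucleus and associates with receptor tyrosine kinases and transcription factors. In epithelial tumours MUC1 is often overexpressed, and it has been linked to receptor signalling, epithelial plasticity and escape from immune recognition. A hairpin RNA is cut by DICER1 to a short guide that directs AGO proteins to matching transcripts, and doxycycline switches the hairpin on. Doxycycline also binds mitochondrial ribosomes.

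Values are TPM, a transcript abundance in which a gene's reads are divided by its length and every column is brought to a common total. Changes are doxycycline minus vehicle on the log2(TPM + 1) scale, which understates the change of genes at low TPM. Of 19909 entries, 28 named as dates were left out and 11566 genes had a mean of at least 1 TPM and were tested. The arms differed across the transcriptome. Pairs of columns of the same arm correlated at 0.9973 to 0.9986 over genes and pairs from different arms at 0.9821 to 0.985, and a first principal component with 84.3% of the variance separated the arms. Calls, at an adjusted p under 0.05 in limma, covered 7052 genes or 61% of those tested, with 5312 (45.9%) higher and 1740 (15%) lower. The median within-arm SD was 0.064 on the log2 scale, and 81.6% of the calls were changes of less than 0.5. The depth behind the values is unknown, since TPM keep no read totals.

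The scale itself moved between the arms. Mitochondrially encoded transcripts took 20.1% to 23.0% of TPM with vehicle and 16.9% to 18.6% with doxycycline, and the median gene was 0.12 higher. Among these transcripts MT-ND4L averaged 89134 TPM with vehicle and 57281 with doxycycline. Of the 12 tested, 9 were not called on this scale. After each column was divided by its median ratio to the other columns the median change was -0.01. Of 11558 genes then tested, 6588 (57%) were called, with 3153 (27.3%) higher and 3435 (29.7%) lower. When the mitochondrially encoded genes were removed instead, 4096 genes were higher and 2360 lower. In what follows, a gene is said to have risen or fallen where it was called in that direction on both scales, as deposited and rescaled. By that rule 27.3% of all genes tested rose and 15% fell, and each count below stands against these shares. All 3153 genes higher after rescaling were also higher as deposited, and all 1740 lower as deposited were also lower rescaled. The rule thus takes rises from the rescaled calls and falls from the deposited ones, and the unequal shares follow from that. Changes are given as deposited. Calls as deposited with a change of at least 1 on this scale, 2-fold in TPM + 1, were few. They were 96 genes (0.83%) higher and 98 (0.847%) lower, and leave out some low genes that changed at least 2-fold in TPM.

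**Figure D1:**
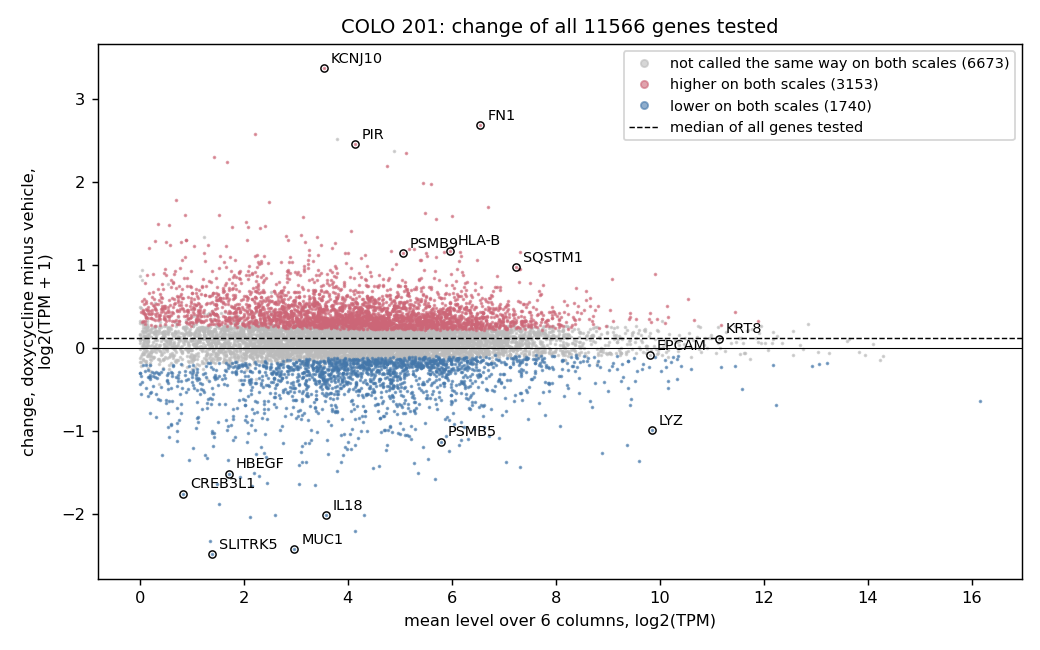
Change with doxycycline (vertical axis, log2(TPM + 1)) against mean level over the 6 columns (horizontal axis, log2 TPM) for the 11566 genes tested. Each point is a gene, coloured where it was called in one direction on both scales. KCNJ10, FN1 and PIR stand at the top, MUC1 and SLITRK5 at the bottom, and the dashed line marks the median of all genes.

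The labelled cell type was checked against epithelial and colon markers. KRT8 averaged 2152 ± 8.08 TPM, KRT18 2463 ± 20.1, KRT19 1826 ± 42.6 and EPCAM 923 ± 23.9 with vehicle (SD, n = 3), and the colon epithelial genes PHGR1 and VIL1 averaged 1111 ± 72.6 and 117 ± 1.84. The intestinal master factor CDX1 was at 0 in every vehicle column, and CDX2 was at 0.124, 0.119 and 0.0433 TPM. The goblet cell mucin MUC2 was under 0.02 TPM in every column and the secretory factor ATOH1 at 0. Markers of fibroblasts and endothelium summed to 3.97 to 4.54 TPM with vehicle and 6.07 to 6.73 with doxycycline over the 17 found in the table, of which COL1A2, CDH5 and CLDN5 were at 0. Markers of leukocytes and red cells summed to 1288 to 1295 TPM with vehicle and 694 to 743 with doxycycline. Most of that was LYZ, which colon secretory cells also make, at 1217 to 1221 and 592 to 624 TPM. The macrophage markers CD68 and CD14 went the other way and rose, from 66.4 ± 2.15 to 109 ± 8.74 TPM and from 0.688 ± 0.113 to 1.44 ± 0.173. CD14 averaged under 1 TPM and was not tested without doxycycline column 1 or 2. PTPRC, the pan-leukocyte marker, was at 0 with vehicle and HBB at 0 throughout. These are bulk cultures, so for any gene below, fewer cells that express it and less RNA per cell cannot be told apart.

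MUC1 fell. The gene (GRCh38, chr1:155185824-155192916, minus strand) stood at 13.2, 15.0 and 13.6 TPM with vehicle and at 2.03, 1.78 and 1.53 TPM with doxycycline. The arms were far apart, and the doxycycline mean was 12.8% of the vehicle mean. The change was -2.43 ± 0.08 (SE), with an adjusted p of 3.5e-10 in limma. An exact two-sided permutation test gave 0.1, the smallest p that 3 columns against 3 allow.

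Of the other mucins with measurable transcripts, MUC5B, MUC13 and MUC20 also fell. Of 5 mucins tested, MUC1 included, 4 fell and 0 rose, also at an unadjusted p under 0.05, and the list's median change was -0.57 (-0.70 rescaled). MUC5B, a gel-forming secreted mucin, went from 25.8, 26.3 and 25.1 TPM to 12.01, 13.7 and 11.4, a change of -1.003 ± 0.06. MUC13, a membrane mucin and the most abundant of the 5, averaged 99.2 ± 3.98 TPM with vehicle and 66.6 ± 3.27 with doxycycline. MUC20 fell by 0.27, and MUC3A changed by -0.13 with overlapping arms and did not pass as deposited (adjusted p = 0.20). Among the enzymes that build mucin-type O-glycans, 10 of 20 rose and 3 fell. FUT2, the fucosyltransferase behind secretor status, dropped from 3.97 ± 0.216 to 1.44 ± 0.199 TPM, and GALNT3, which attaches the first sugar, from 55.1 ± 0.515 to 35.99 ± 3.23. The sialyltransferases ST6GALNAC4 and ST6GALNAC2 rose by 0.64 and 0.62, and B3GNT3, which extends the glycan core, rose by 0.41. ST6GALNAC1, the sialyltransferase of the sialyl-Tn antigen, was the third that fell, by 0.68, and was picked out after its value was seen.

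Genes beside MUC1 on chromosome 1 moved in both directions. Of 15 neighbours tested, 6 rose and 2 fell, against 27.3% and 15% of all genes tested. DPM3, a subunit of dolichol-phosphate mannose synthase, rose from 56.5, 56.3 and 54.7 TPM to 94.5, 91.2 and 104, and FAM189B, SCAMP3 and ADAM15 rose by 0.68, 0.58 and 0.40. The 2 that fell were the ephrins EFNA3 and EFNA4, by 0.24 and 0.16. EFNA4 was not called as deposited without vehicle column 1, vehicle column 3 or doxycycline column 2 (adjusted p = 0.085, 0.150 and 0.130).

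The genes that rose most, among those called with separate arms, were mostly low or moderate in vehicle cells. KCNJ10, an inward rectifier potassium channel, went from 1.21, 1.23 and 1.23 TPM to 23.2, 22.3 and 20.6, a change of 3.37 ± 0.06 and the highest of all genes tested. FN1, fibronectin of the extracellular matrix, stood at 25.2, 25.0 and 22.9 TPM and then at 172, 156 and 159, a change of 2.69 ± 0.05. PIR, which encodes the iron-binding nuclear protein pirin, rose from 4.95, 4.84 and 4.35 to 31.7, 28.1 and 31.3 TPM. In all of these every doxycycline column stood several times above every vehicle column.

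SERPINI1, the secreted protease inhibitor neuroserpin, rose from 10.8 ± 0.589 to 59.0 ± 2.73 TPM, and GSTA4, a glutathione transferase that acts on lipid aldehydes, from 9.05 ± 0.592 to 44.96 ± 2.70. KITLG, the ligand of the KIT receptor, rose from 19.0 ± 0.437 to 78.0 ± 7.69 TPM. DAAM2, a formin of WNT signalling, SLC26A9, an epithelial chloride transporter, and AMOT, a scaffold that binds YAP, started from 0.619 ± 0.0898, 0.461 ± 0.0496 and 2.02 ± 0.0433 TPM and reached 8.70 ± 0.336, 5.90 ± 0.0274 and 9.20 ± 0.357. KLRC2, the gene of an activating receptor otherwise known from natural killer cells, rose from 0.174 ± 0.0907 to 3.08 ± 0.594 TPM. KLRC2 has close relatives in the genome, and how the authors' counting split shared reads is not given in the sources used here.

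KCNJ10, KCNJ9 and IGSF8 lie side by side on chromosome 1. KCNJ9, another inward rectifier, rose from 0.243 ± 0.0545 to 5.12 ± 0.361 TPM, IGSF8, a partner of tetraspanins, from 16.9 ± 0.318 to 70.04 ± 3.27, and PIGM, whose gene lies inside the span of KCNJ10, by 1.12. Of the 12 genes tested within 300 kb of KCNJ10, itself included, 10 rose, and DCAF8 (0.19, and 0.06 rescaled) and COPA (-0.03) did not on both scales. This window and its genes were picked after their values were seen.

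**Figure D2:**
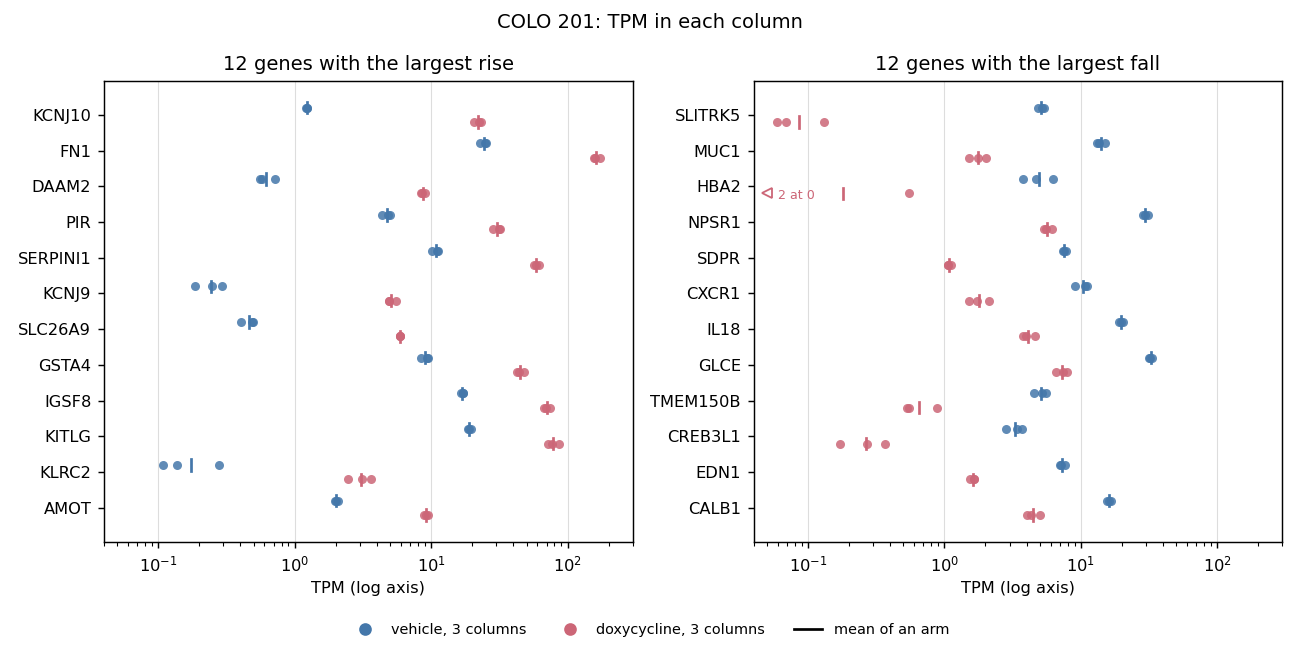
TPM in each of the 6 columns (horizontal axis, log scale) for the 12 genes with the largest rise (left) and the 12 with the largest fall (right). Only called genes with separate arms were eligible. Points are columns, short lines are arm means, and triangles mark columns at 0. KCNJ10 moves from 1.22 to 22.03 TPM on average and MUC1 from 13.9 to 1.78.

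The genes that fell most, among those called with separate arms, included signalling molecules and receptors. SLITRK5, a neuronal membrane protein, went from 5.16, 5.32 and 4.88 TPM to 0.132, 0.0592 and 0.0689, a change of -2.49 ± 0.08. IL18, an inflammatory cytokine that epithelia store as a precursor, went from 18.9, 20.4 and 19.8 TPM to 3.95, 4.58 and 3.80, a change of -2.02 ± 0.07. CREB3L1, a membrane-bound transcription factor of secretory cells, went from 3.39, 2.82 and 3.71 to 0.366, 0.269 and 0.170 TPM. Separate arms were a condition of this choice.

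NPSR1, the neuropeptide S receptor, fell from 29.7 ± 1.38 to 5.66 ± 0.390 TPM and GLCE, the epimerase of heparan sulfate, from 32.4 ± 0.765 to 7.29 ± 0.658. SDPR, a caveolar coat protein now named CAVIN2, fell from 7.55 ± 0.218 to 1.08 ± 0.0300 TPM, and CXCR1, a chemokine receptor, from 10.3 ± 1.05 to 1.78 ± 0.301. EDN1, the precursor of a vasoactive endothelin, CALB1, a calcium buffer, and TMEM150B fell by 1.66, 1.66 and 1.89. HBA2, a globin gene, was at 4.71, 3.79 and 6.23 TPM with vehicle and was listed at 0, 0 and 0.546 with doxycycline. HBA2 has a near-identical copy, HBA1, and the split of reads between them is uncertain. Among the most abundant genes that fell were the calcium-binding protein S100A11, from 5924 ± 151 to 3675 ± 175 TPM, and the mitochondrial gene MT-ND4L, from 89134 ± 4492 to 57281 ± 3381. The 5 most abundant genes called higher as deposited were HIST1H3B, HIST1H2BG, HIST1H1C, HIST1H1B and HIST1H4K, and none of the 5 passed after rescaling. HIST1H2BH, more abundant than these over the 6 columns, was lower on both scales, at 8368 ± 152 and 7226 ± 529.5 TPM, and was not called as deposited without doxycycline column 1 (adjusted p = 0.055). Histone genes form families of near-identical copies and took 14.2% to 15.3% of TPM with vehicle and 15.4% to 16.7% with doxycycline.

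Ligands of NKG2D, the activating receptor that lets natural killer cells see stressed cells, did not move as one group. Of 7 tested, 4 rose and 3 fell, and the median change was 1.03. MICA stood at 7.81, 7.75 and 6.85 TPM with vehicle and at 18.9, 18.7 and 17.9 with doxycycline, a change of 1.21 ± 0.06. MICB went from 4.92, 4.77 and 4.24 to 10.7, 10.4 and 10.4 TPM, a change of 1.03 ± 0.06. ULBP3 rose by 1.17 and RAET1L by 1.52, whereas RAET1E, another ligand of the ULBP family, dropped from 3.87 ± 0.149 to 1.38 ± 0.0789 TPM. The other 2 that fell were ULBP1 and ULBP2, by 0.29 and 0.21. ULBP2 was not called as deposited without vehicle column 2 or doxycycline column 2 or 3 (adjusted p = 0.14, 0.056 and 0.085). RAET1L shares long stretches with its neighbours in the ULBP cluster, so its split of reads is uncertain.

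MICA and MICB are neighbouring duplicates in the HLA region of chromosome 6, and because they rose together their promoters are shown, from RefSeq (GRCh38.p14, plus strand, 250 bases before to 50 after the start). MICA lies at chr6:31403345-31403644 and MICB at chr6:31497895-31498194, and capitals mark the CCAAT box, searched on both strands, which appears here as its complement.
MICA: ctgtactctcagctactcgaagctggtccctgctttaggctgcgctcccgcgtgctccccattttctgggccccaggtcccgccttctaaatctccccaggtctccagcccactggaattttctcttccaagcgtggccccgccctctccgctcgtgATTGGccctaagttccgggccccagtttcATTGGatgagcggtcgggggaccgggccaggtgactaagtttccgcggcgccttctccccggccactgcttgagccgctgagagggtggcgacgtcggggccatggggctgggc
MICB: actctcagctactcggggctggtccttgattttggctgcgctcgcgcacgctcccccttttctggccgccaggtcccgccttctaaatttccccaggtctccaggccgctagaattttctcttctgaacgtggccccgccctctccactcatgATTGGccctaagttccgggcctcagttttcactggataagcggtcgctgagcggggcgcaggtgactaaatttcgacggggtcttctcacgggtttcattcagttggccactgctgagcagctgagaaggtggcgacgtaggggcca
In a pairwise alignment 246 of 284 ungapped positions (86.6%) were identical. The MICA window held 2 matches and the MICB window 1, while 35.7% of the 27305 genes with such a window held at least 1. A match is a description of the letters, and binding was not measured.

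Ligands of other natural killer receptors fell as often as they rose, with 4 of 13 up and 5 down. PVRL1 and PVRL2, the nectins now named NECTIN1 and NECTIN2, fell from 7.83 ± 0.247 to 2.65 ± 0.0732 TPM and from 96.6 ± 4.26 to 62.4 ± 1.21. NCR3LG1, the ligand of NKp30, fell by 0.43, and ICAM3, an adhesion ligand of leukocyte integrins, rose by 0.42. The count of 5 was 3 without vehicle column 1 or 3, or without doxycycline column 1 or 3. In the death receptor pathway 6 of 23 genes rose and 4 fell. FASLG went from 2.59, 2.21 and 1.90 TPM to 8.24, 7.63 and 7.36, and its receptor FAS from 1.61, 1.39 and 1.45 to 3.80, 3.99 and 3.39. CASP8, the initiator caspase, and MLKL, the effector of necroptosis, rose by 0.33 and 0.45, while TNFSF10, the ligand TRAIL, fell by 0.52. Among checkpoint and suppressive genes 3 of 14 rose and 5 fell. NT5E, the ectoenzyme that makes adenosine, fell from 77.2 ± 1.77 to 43.0 ± 3.01 TPM, and the galectins LGALS1 and LGALS3 and the cytokine TGFB1 fell by 0.50, 0.49 and 0.45. Another galectin, LGALS9, went the other way and rose by 0.30, from 25.8 ± 0.869 to 32.0 ± 0.157 TPM. Of the 3 genes of this list that rose, 1 was left without vehicle column 2 or doxycycline column 1.

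Transcripts of antigen presentation rose more often than genes at large. Of 24 HLA class I and peptide loading genes, 14 rose and 2 fell, with a median change of 0.29 (0.16 rescaled) against 0.12 and -0.01 for all genes. HLA-B, a class I heavy chain, stood at 35.0, 39.9 and 39.8 TPM with vehicle and 88.2, 86.7 and 86.9 with doxycycline, a change of 1.17 ± 0.05. HLA-C, the more abundant heavy chain, went from 222, 231 and 233 to 348, 331 and 340 TPM. PSMB9, a catalytic subunit of the immunoproteasome, went from 20.8, 20.4 and 19.7 to 45.4, 43.8 and 48.6 TPM, a change of 1.14 ± 0.05. TAP1, a chain of the transporter that brings peptides into the endoplasmic reticulum, went from 10.7, 10.99 and 10.8 to 17.4, 16.3 and 17.9. RFX5, a factor of the class I and class II promoters, rose by 0.41. The 2 that fell were the chaperones CALR and PDIA3, each by about 0.1, and with any 1 column left out 0 or 1 of them was called. HLA genes vary between people and resemble each other, so the split of reads among them is uncertain.

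TAP1 and PSMB9 are read in opposite directions from a shared stretch of chromosome 6, and their RefSeq windows (GRCh38.p14) overlap by 13 bases. They are shown because both rose. TAP1 is on the minus strand at chr6:32853655-32853954 and PSMB9 on the plus strand at chr6:32853942-32854241, and capitals mark GAAANNGAA, a core of the interferon response element, searched on both strands.
TAP1: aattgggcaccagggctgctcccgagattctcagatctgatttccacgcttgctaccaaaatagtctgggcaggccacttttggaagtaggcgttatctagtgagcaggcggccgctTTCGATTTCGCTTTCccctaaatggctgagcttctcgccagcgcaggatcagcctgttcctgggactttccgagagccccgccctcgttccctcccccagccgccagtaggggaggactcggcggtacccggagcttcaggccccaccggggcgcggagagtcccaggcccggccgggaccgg
PSMB9: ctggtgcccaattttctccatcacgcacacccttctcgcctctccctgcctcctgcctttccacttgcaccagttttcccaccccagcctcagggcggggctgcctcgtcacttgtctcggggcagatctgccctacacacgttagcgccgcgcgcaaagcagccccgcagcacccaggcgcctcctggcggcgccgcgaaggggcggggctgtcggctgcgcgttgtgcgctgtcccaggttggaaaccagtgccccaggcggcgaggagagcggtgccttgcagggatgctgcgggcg
The TAP1 window held 2 overlapping matches, here as the complement, and the PSMB9 window 0. Of all windows 8.32% held a match, against 8 of the 21 (38.1%) found for the class I and loading genes.

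The constitutive proteasome was the group most uniformly higher among those described here, with 1 exception. Of its 31 subunits 23 rose and 1 fell, with a median change of 0.33 (0.20 rescaled), and 19 to 23 rose with any 1 column left out. PSMB4 and PSMB6, beta subunits of the catalytic core, went from 321, 310 and 328 to 487, 465 and 503 TPM and from 305, 308 and 302 to 460, 427 and 480. PSMD3 and PSMD11, of the regulatory lid, rose by 0.46 and 0.48. PSMB5, the subunit with chymotrypsin-like activity, stood at 76.2, 77.2 and 75.3 TPM with vehicle and fell to 35.0, 33.1 and 34.5, a change of -1.13 ± 0.04. Its immunoproteasome counterpart PSMB8 went from 41.4, 43.4 and 42.9 to 61.9, 52.2 and 58.0 TPM. PSMB5 thus stood above PSMB8 in every vehicle column and below it in every doxycycline column. The immunoproteasome pair PSMB10 and PSMB9 differed, with PSMB10 at 42.6 ± 2.56 and 47.2 ± 0.391 TPM and not called after rescaling.

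**Figure D3:**
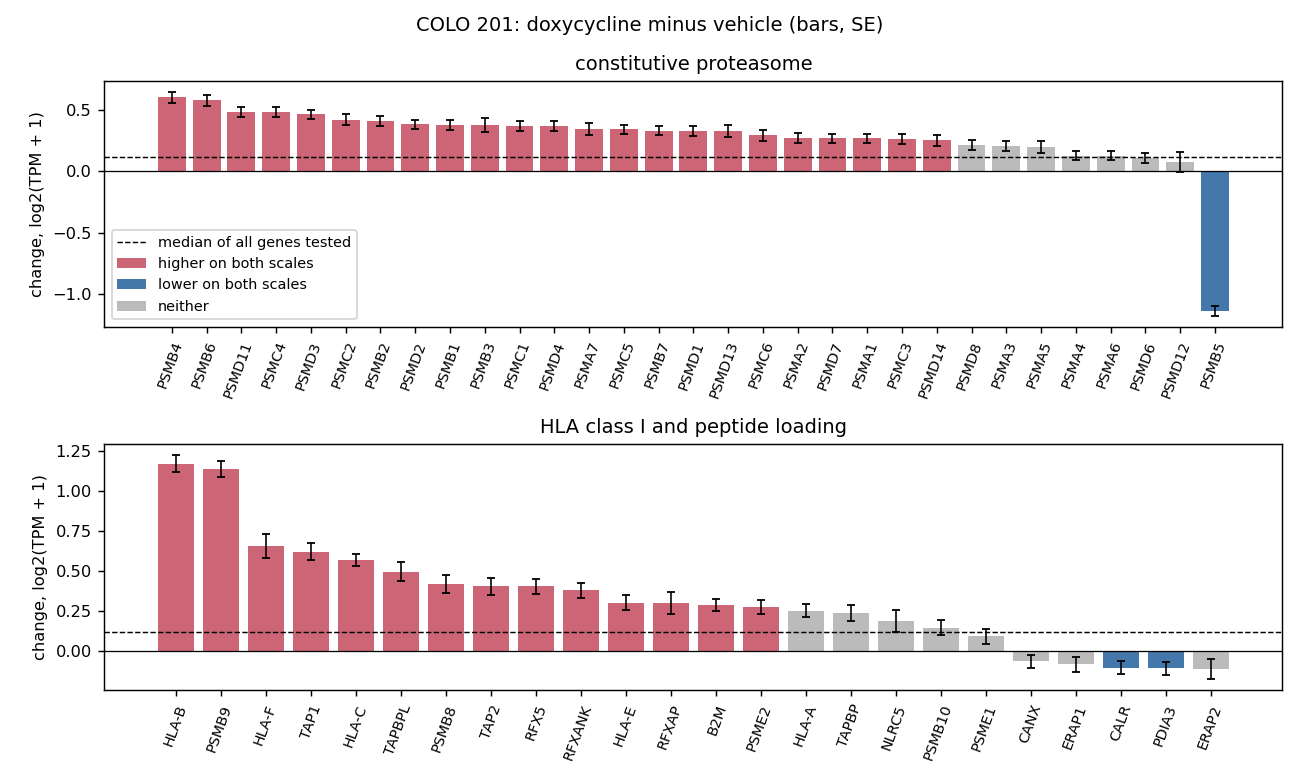
Change with doxycycline (bars, log2(TPM + 1), with SE) of 31 constitutive proteasome subunits (top) and 24 HLA class I and peptide loading genes (bottom). Red and blue bars rose and fell on both scales, and the dashed line is the median of all genes. PSMB5 at -1.13 is the bar below 0 in the top panel.

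Interferon-stimulated genes did not share the direction of the class I genes. Of 44 effectors tested 7 rose and 15 fell, with a median change of -0.02 (-0.14 rescaled). WARS, the tryptophanyl-tRNA synthetase now named WARS1 and induced by interferon gamma, went from 59.5, 61.9 and 61.0 to 21.0, 21.4 and 19.9 TPM, a change of -1.51 ± 0.04. DDX60, an antiviral helicase, fell from 7.50 ± 0.386 to 3.15 ± 0.455 TPM and EPSTI1 from 65.9 ± 1.36 to 39.3 ± 1.93. ISG15, a ubiquitin-like modifier and a textbook interferon target, rose from 37.7, 37.0 and 41.3 to 69.2, 63.6 and 73.4 TPM, and IFI35 rose by 0.52. Of 23 signalling factors 0 rose and 8 fell. TMEM173, which encodes STING and is now named STING1, went from 9.47, 9.60 and 9.81 to 3.90, 3.50 and 3.93 TPM. IFNGR1, a chain of the interferon gamma receptor, fell from 124 ± 1.09 to 69.7 ± 3.60 TPM, and the kinase JAK2 and the factor IRF9 fell by 0.47 and 0.43. The count of 0 was 2 without vehicle column 3 and 1 without doxycycline column 2. As deposited 8 of the 23 were called higher, and 9 at an unadjusted p under 0.05.

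The RefSeq window of ISG15 (GRCh38.p14, plus strand, chr1:1013247-1013546) is shown as an example of the interferon element in a gene that rose while most of the list did not, with GAAANNGAA in capitals.
ISG15: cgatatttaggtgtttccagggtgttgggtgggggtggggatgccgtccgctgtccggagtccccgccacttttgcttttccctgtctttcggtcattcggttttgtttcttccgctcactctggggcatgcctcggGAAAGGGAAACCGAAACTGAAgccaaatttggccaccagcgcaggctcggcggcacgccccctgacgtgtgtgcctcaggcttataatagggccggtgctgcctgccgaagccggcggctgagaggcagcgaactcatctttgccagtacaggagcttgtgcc
It held 3 overlapping matches. Among the effector genes with a window 29 of 40 (72.5%) held at least 1 match.

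NF-kB targets and cytokines rose more often than they fell, with 10 of 21 up and 2 down and a median change of 0.22 (0.13 rescaled). The subunits NFKB2 and NFKB1 rose by 0.48 and 0.37, ZC3H12A, an RNase that limits inflammation, by 0.40, and IL8, the chemokine now named CXCL8, from 0.742, 0.713 and 0.825 to 1.51, 1.62 and 1.85 TPM. IL18, described above, and CCL20, which fell by 0.56 and is named after its value was seen, were the 2 that went down.

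Most lysosome and autophagy genes were higher with doxycycline. Of 43 genes 27 rose, 3 fell and 13 did not pass on both scales, with a median change of 0.29 (0.16 rescaled), and 23 to 27 rose with any 1 column left out. SQSTM1, the autophagy receptor p62, stood at 95.2, 103 and 104 TPM with vehicle and 204, 194 and 199 with doxycycline, a change of 0.98 ± 0.04. GABARAPL1, which coats autophagosomes, went from 3.96, 3.90 and 4.00 to 9.05, 9.15 and 9.27 TPM, and WIPI1, a phosphoinositide binder of forming autophagosomes, from 11.9, 12.4 and 12.1 to 22.2, 22.7 and 22.8. CTSC, a lysosomal protease, rose by 0.74. MAP1LC3B, another coat protein of autophagosomes, moved the other way, from 49.9, 51.9 and 47.6 to 28.8, 28.2 and 28.0 TPM. ATG5 and BECN1 were the other two that fell, by 0.25 and 0.16. The E-box CACGTG, searched on both strands, was in 7 of the 31 windows found for the list (22.6%) and in 7.41% of all windows.

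Nuclear genes of respiration rose or did not pass, and most mitochondrially encoded ones did not pass. Of 49 nuclear subunits of oxidative phosphorylation 22 rose and 0 fell, with a median change of 0.24 (0.12 rescaled). As deposited 43 were higher and 0 lower, at an adjusted and at an unadjusted p under 0.05. After rescaling 2 were called lower. ATP5G1, a membrane subunit of ATP synthase now named ATP5MC1, averaged 263 ± 7.42 TPM with vehicle and 385 ± 25.1 with doxycycline. UQCRC1 and COX5A, of complexes III and IV, rose by 0.46 and 0.43. Of 12 mitochondrially encoded genes 0 rose, also at an unadjusted p, and 3 fell. MT-ND4L was at 92925, 84173 and 90305 TPM with vehicle and 56559, 60964 and 54319 with doxycycline, a change of -0.64 ± 0.09. MT-ND4L (chrM:10470-10766) overlaps MT-ND4 (chrM:10760-12137), and how shared reads were split is not given in the sources used here. MT-ND1 and MT-ND4 changed by -0.19 each, with overlapping arms for MT-ND4, and neither was called without vehicle column 1 or 3 or doxycycline column 1 (adjusted p = 0.067 to 0.20), nor MT-ND4 without doxycycline column 3. Without vehicle column 1 or 3 or doxycycline column 1, the 3 became 1. Mitochondrial ribosomal proteins rose in 29 and fell in 4 of 72 cases, with MRPL24 and MRPS21 up by 0.69 and 0.57 and MRPL17 down by 0.50. Of 74 cytosolic ribosomal proteins 0 rose and 6 fell, among them RPL38, RPL7 and RPS18 by 0.28, 0.26 and 0.24. The 6 became 3 without vehicle column 2, and the 0 became 3 without doxycycline column 2 and 1 without vehicle column 3. As deposited 11 of the 74 were called higher, and 13 at an unadjusted p.

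Genes of the EGFR system went down. Of 18 receptors, ligands and feedback genes 12 fell and 0 rose, with a median change of -0.37 (-0.50 rescaled), and 11 or 12 fell with any 1 column left out. The 0 became 1 without doxycycline column 2. As deposited 1 was called higher, and 2 at an unadjusted p. HBEGF, an EGFR ligand, went from 5.47, 5.83 and 4.72 to 1.16, 1.28 and 1.18 TPM, a change of -1.52 ± 0.08. AXL, a receptor kinase, went from 5.03, 5.26 and 5.03 to 1.76, 2.03 and 1.67, and TGFA, another EGFR ligand, from 34.8, 36.3 and 35.7 to 22.6, 23.3 and 21.4. LRIG1 and ERRFI1, inhibitors of the receptor, fell by 0.74 and 0.55. In 12 of the 18 every doxycycline column lay below every vehicle column, and in 1 above. Of all 11566 genes tested these numbers were 1918 and 5611. The 5 genes named were those with the smallest adjusted p of the list. Downstream MAPK outputs were split, with 6 of 27 up and 10 down. The cyclin CCND1 fell from 179 ± 6.59 to 119 ± 5.95 TPM and SPRY2, a feedback inhibitor, from 24.5 ± 0.969 to 16.4 ± 0.628. MYC rose from 64.1 ± 0.864 to 90.8 ± 2.59 TPM, and the ETS factors ETV1 and ETV5 rose by 1.06 and 0.54. The 6 became 4 or 5 and the 10 became 7 to 11 with a column left out.

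**Figure D4:**
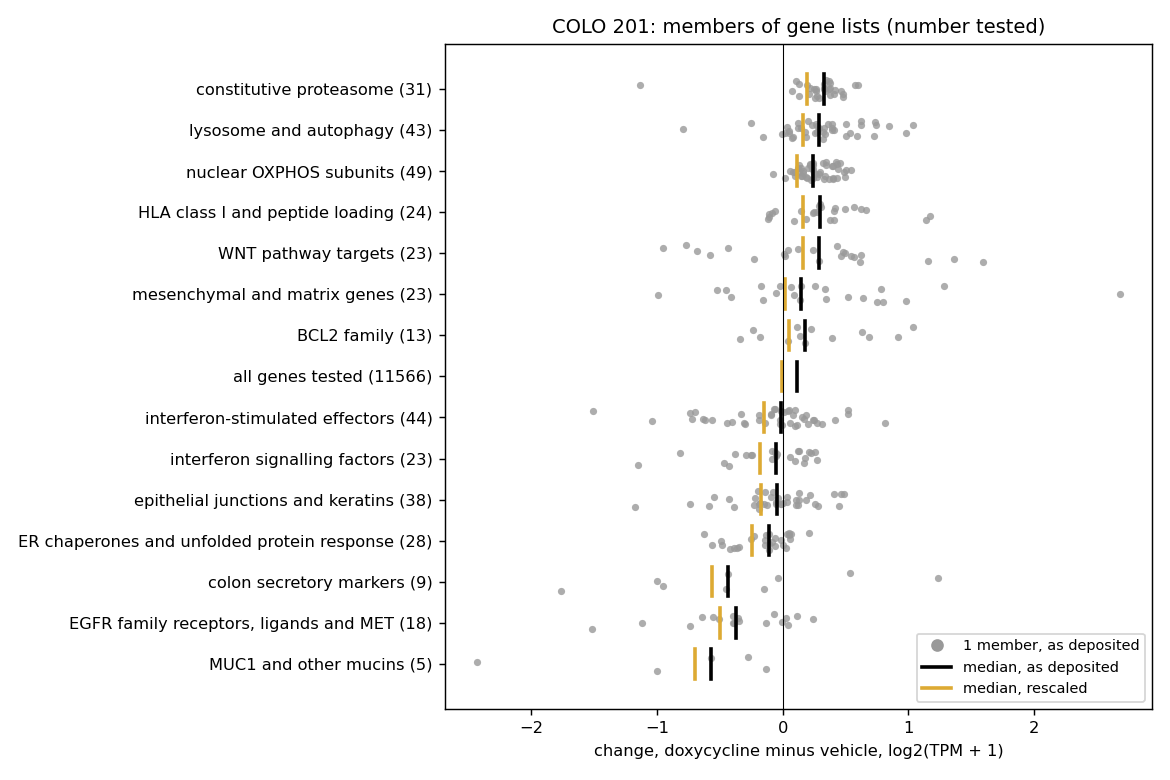
Change with doxycycline (horizontal axis, log2(TPM + 1)) of the tested members of 14 gene lists, with all genes tested for reference. Grey points are members as deposited, black lines list medians as deposited and gold lines medians after rescaling. The proteasome median lies at 0.33 and the EGFR family median at -0.37, against 0.12 for all genes.

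WNT targets were mostly higher. Of 23 tested 13 rose and 6 fell, with a median change of 0.29 (0.16 rescaled). The secreted and cytoplasmic feedback inhibitors NOTUM and NKD1 went from 0.452, 0.243 and 0.507 to 3.41, 2.97 and 3.30 TPM and from 97.7, 101 and 95.8 to 226, 216 and 216. TNFRSF19, a receptor of stem cell compartments, rose from 4.33 ± 0.0979 to 12.7 ± 0.541 TPM, and ASCL2, a factor of intestinal stem cells, from 109 ± 1.09 to 162 ± 2.92. CD44, a hyaluronan receptor also counted as a WNT target, fell from 37.5 ± 0.729 to 18.9 ± 0.518. In the Notch pathway 3 of 20 rose and 6 fell. The target HES4 went from 5.65, 3.82 and 5.22 to 13.0, 13.5 and 13.1 TPM and HES6 rose by 0.54, while the ligands DLL4 and JAG1 and the regulator DTX2 fell by 0.45, 0.41 and 0.46. In the TGF-beta and BMP pathway 6 of 23 rose and 6 fell. The signal transducer SMAD3 fell from 31.5 ± 1.11 to 19.9 ± 0.479 TPM and its target PMEPA1 by 0.61, and the ligand subunit INHBB rose from 35.7 ± 1.16 to 64.6 ± 1.17, the inhibitor BAMBI by 0.49 and the ligand BMP4 by 0.43.

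Among endoplasmic reticulum chaperones and genes of the unfolded protein response, falls were small and no gene rose on both scales. Of 28 tested 15 fell, 0 rose and 13 did not pass, with a median change of -0.11 (-0.24 rescaled), and 12 to 14 fell with any 1 column left out. As deposited 1 was called higher, and 1 at an unadjusted p. SEL1L, which works in the export of misfolded proteins, went from 67.3, 71.2 and 63.2 to 42.2, 46.2 and 40.9 TPM. HSP90B1 and PDIA4, a folding chaperone and a disulfide isomerase, averaged 1338 ± 21.7 and 777 ± 5.06 TPM with vehicle and 954 ± 32.6 and 557 ± 17.6 with doxycycline. HERPUD1 and MANF, both induced by unfolded proteins, fell by 0.42 and 0.36. In the integrated stress response 5 of 30 genes rose and 12 fell. CBS, of the transsulfuration route, went from 3.94 ± 0.400 to 0.961 ± 0.0750 TPM, DDIT4, an inhibitor of mTORC1, from 44.6 ± 4.85 to 22.04 ± 1.43 and CHAC1, which degrades glutathione, from 17.6 ± 1.07 to 9.85 ± 0.238. The secreted stress factor GDF15 rose from 11.8 ± 0.572 to 26.2 ± 0.858 TPM and the glutamine transporter SLC1A5 from 1192 ± 27.2 to 1792 ± 38.8. The 5 became 8 without doxycycline column 2. Among aminoacyl-tRNA synthetases 10 of 37 rose and 8 fell. DARS, which charges the aspartate tRNA, went from 142, 147 and 140 to 67.2, 71.1 and 64.6 TPM, a change of -1.07 ± 0.04, while VARS and FARSA rose by 0.52 and 0.36.

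Markers of differentiated colon were split, and the split ran within both the absorptive and the secretory list. Of 13 absorptive markers tested, 4 rose and 5 fell, and 19 others were under 1 TPM. PHGR1, an abundant transcript of mature colonocytes, went from 1055, 1086 and 1193 to 411, 421 and 459 TPM, and LGALS4, a galectin of the intestinal epithelium, from 56.0, 53.3 and 59.7 to 20.8, 20.3 and 21.2. HNF4A, a transcription factor of gut epithelium, went from 59.5, 61.5 and 62.8 to 26.0, 25.8 and 26.4 TPM and GPA33, a surface antigen, fell by 1.25. GUCA2A, the hormone guanylin, rose from 3.52 ± 0.173 to 10.5 ± 0.366 TPM. CDX2 stayed under 1 TPM on average and was not tested, at 0.124, 0.119 and 0.0433 TPM with vehicle and 0.823, 1.02 and 0.831 with doxycycline. Of 9 secretory markers 5 fell and 2 rose. LYZ, the antibacterial lysozyme, went from 1217, 1221 and 1219 to 592, 615 and 624 TPM, AGR2, which folds mucins, from 129 ± 2.68 to 66.4 ± 3.38, and TFF2, a trefoil peptide, from 6.31 ± 1.29 up to 16.1 ± 1.14. The hormone gene CCK fell from 13.1 ± 1.32 to 4.38 ± 0.251 TPM, and the other tested enteroendocrine markers, SYP and SCG2, rose by 0.46 and 0.60 from low levels.

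Junction and matrix genes changed in several directions. Of 38 genes of epithelial junctions and keratins 6 rose and 14 fell, with a median change of -0.04 (-0.18 rescaled). CDH1, E-cadherin, went from 336, 356 and 340 to 232, 232 and 223 TPM, EVPL, an envelope protein of desmosomes, from 94.2, 99.4 and 101 to 41.6, 43.4 and 43.7, and KRT80, a keratin, from 102 ± 2.16 to 61.0 ± 1.62. CGN, of tight junctions, and PKP1, of desmosomes, rose by 0.48 and 0.41. The abundant keratins KRT8, KRT18 and KRT19 changed by 0.11, -0.04 and 0.03 and were not called as deposited, while KRT18 was called lower after rescaling.

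Mesenchymal and matrix genes rose in 11 and fell in 5 of 23 cases. Besides FN1, the matricellular proteins THBS1 and TNC went from 8.73 ± 0.387 to 18.2 ± 0.309 TPM and from 114 ± 4.19 to 200 ± 5.51, and TGFBI from 132 ± 2.42 to 228 ± 8.84. PLAU, the urokinase protease, fell from 13.4 ± 0.272 to 6.24 ± 0.327 TPM. The intermediate filament gene VIM, a defining mesenchymal marker, was under 0.2 TPM in every column. The 5 that fell became 3 without vehicle column 1 or 2. The fibroblast and endothelial marker sum given above moved in the same direction as FN1, from at most 4.54 to at least 6.07 TPM, with EGFL7 (2.06 ± 0.292 to 3.17 ± 0.321) and TAGLN (1.20 ± 0.0546 to 1.29 ± 0.238) the tested members, and its part in the result was not tested. Among integrins 4 of 13 rose and 4 fell. ITGB4, of hemidesmosomes, went from 841 ± 19.2 to 549 ± 2.91 TPM, and ITGB8 and ITGA3 fell by 0.56 and 0.33. ITGA2, of a collagen receptor, and ITGB5 rose by 0.55 and 0.49. The 4 that rose became 2 without vehicle column 1.

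Counts of cell cycle genes depended on the scale. In the S phase list 9 of 46 rose and 3 fell on both scales, and in the G2 and mitosis list 8 of 42 rose and 3 fell, against 27.3% and 15% of all genes. As deposited 25 and 25 were called higher and 3 and 3 lower, against 45.9% and 15% of all genes. Their median changes were 0.12 and 0.16 (0.00 and 0.02 rescaled). The 9 became 5 without vehicle column 1 or 2 or doxycycline column 1, the S phase 3 became 1 without vehicle column 1 or 2 or doxycycline column 3, and the 8 became 5 without vehicle column 1. FOXM1, a factor of mitotic transcription, rose from 59.3 ± 0.446 to 81.3 ± 1.65 TPM and PTTG1, the separase inhibitor, by 0.44. ANLN, a scaffold of cytokinesis, fell from 256 ± 6.84 to 176 ± 8.88. E2F2 and RPA2 rose by 0.46 and 0.42, and CCNE1, the cyclin of S phase entry, fell by 0.35. Ribosome biogenesis and MYC targets rose in 8 and fell in 4 of 36 cases, with UTP20 and CAD up by 0.45 and 0.40 and LYAR down by 0.26. The 8 became 5 without vehicle column 3.

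Within the BCL2 family the 5 members that rose on both scales promote death, and 1 that promotes death fell. Of 13 tested 5 rose and 3 fell. On the deposited scale 9 of the 13 were called higher, not all of them named here. BMF went from 1.49, 1.86 and 1.70 to 4.52, 4.44 and 4.51 TPM, BBC3, also known as PUMA, from 2.14, 2.53 and 2.20 to 6.18, 4.67 and 4.86, and BCL2L11, also known as BIM, from 31.1, 34.2 and 31.4 to 53.2, 55.1 and 48.8. BAK1, a pore former, rose by 0.63, and BAD, picked out after its value was seen, by 0.39. MCL1, which protects from death, fell from 90.7 ± 4.09 to 71.7 ± 3.27 TPM. PMAIP1, which promotes death, and BCL2L1, which protects, were the other two that fell, by 0.24 and 0.18. Among p53 targets 11 of 30 rose and 7 fell. GADD45A, a stress gene of growth arrest, rose from 29.9 ± 0.868 to 54.4 ± 2.29 TPM and DDB2, of DNA repair, by 0.41, while TP53INP1 fell from 3.98 ± 0.176 to 1.36 ± 0.188.

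Metabolic genes gave mixed counts. In the glycolysis and hypoxia list 16 of 33 rose and 5 fell, with a median change of 0.25 (0.12 rescaled). The entry enzymes HK2 and HK1 went from 26.4 ± 1.04 to 43.6 ± 0.905 TPM and from 27.3 ± 0.777 to 43.5 ± 1.06, and HIF1A, the hypoxia factor, from 55.1 ± 1.40 to 85.7 ± 4.13. LDHA, lactate dehydrogenase, went down from 820, 860 and 865 to 530, 525 and 514 TPM and PGAM1, a late step of glycolysis, from 149, 163 and 164 to 93.3, 84.4 and 92.9. Among cholesterol genes 7 of 25 rose and 5 fell, with LSS and ACAT2, of the synthesis route, up by 0.46 and 0.38. Of 13 fatty acid synthesis genes 6 rose and 3 fell, with ACSL1, ELOVL6 and FASN up by 0.63, 0.50 and 0.37 and the desaturase SCD down from 606 ± 8.48 to 422 ± 13.8 TPM. NRF2 targets and glutathione enzymes rose in 10 and fell in 8 of 30 cases, and 6 rose without vehicle column 1. ME1, malic enzyme, and CAT, catalase, rose by 0.53 and 0.42, and AKR1B1 and GSTP1 fell by 0.80 and 0.38. Metallothioneins and zinc carriers fell in 5 and rose in 0 of 15 cases. MT2A, a metal-binding protein, went from 647, 684 and 662 to 235, 298 and 295 TPM, MT1X from 513 ± 27.9 to 313 ± 30.7, and SLC30A7, a zinc carrier of the Golgi, from 13.2 ± 0.862 to 7.60 ± 0.661. Metallothionein genes are close copies, so their split of reads is uncertain, and the count of 0 was 1 without vehicle column 1. As deposited 2 were called higher, and 2 at an unadjusted p.

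Among Polycomb subunits 8 of 26 rose and 2 fell. CBX6, PCGF2 and PHF1 rose by 0.73, 0.51 and 0.51 and EZH1, the less common methyltransferase, by 0.39. The 2 that fell, BMI1 and PHC3, became 1 without vehicle column 1 or 2 or doxycycline column 1 or 3. Of 13 genes of the RNA interference machinery, which processes the hairpin, 3 rose and 6 fell. DICER1, which cuts hairpins, went from 19.6, 20.5 and 19.1 to 27.1, 27.9 and 24.3 TPM and TNRC6B, a silencing scaffold, rose by 0.60, while its relative TNRC6C and the DICER1 partner PRKRA fell by 0.55 and 0.37. RAB27A, a GTPase of vesicle release named in the study, went from 13.8, 14.4 and 13.7 to 23.6, 22.9 and 22.2 TPM, a change of 0.67 ± 0.05.

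To ask whether the changes of COLO 201 were shared with another line under the same treatment, the within-table changes were compared with those of H1975, a lung adenocarcinoma line with the same kind of hairpin and the same column marks. The change differed for 4175 of 10823 genes tested in both lines (38.6%). MUC1 fell in both, by 2.43 ± 0.10 in COLO 201 and by 3.46 ± 0.10 in H1975, where it started higher, at 97.5 ± 9.98 TPM with vehicle (SD, n = 3). The scale understates changes at low TPM, and MUC1 ended at 1.78 ± 0.250 TPM in COLO 201 and 8.01 ± 1.35 in H1975. FN1 rose by 2.69 ± 0.06 in COLO 201 and changed by -0.22 ± 0.06 in H1975, where vehicle columns held 100, 113 and 101 TPM. PIR and IGSF8 changed by -0.48 and -0.24 in H1975, and SERPINI1 and GSTA4 by -0.01 and -0.07. IL18 changed by 0.06 ± 0.07 in H1975, at 78.3 ± 2.55 TPM with vehicle and 81.7 ± 5.19 with doxycycline. GLCE, CREB3L1 and SDPR had changes of -0.84, -0.63 and -0.30 there, in the same direction as in COLO 201 and smaller. SDPR started at 1.61 ± 0.0959 TPM with vehicle in H1975, so on this scale it could not fall there as far as in COLO 201. The 10 genes were chosen for their change in COLO 201, so a smaller change in H1975 is in part set by the choice. The tables were normalized separately, and the lines differ in tissue and in vehicle levels.

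**Figure D5:**
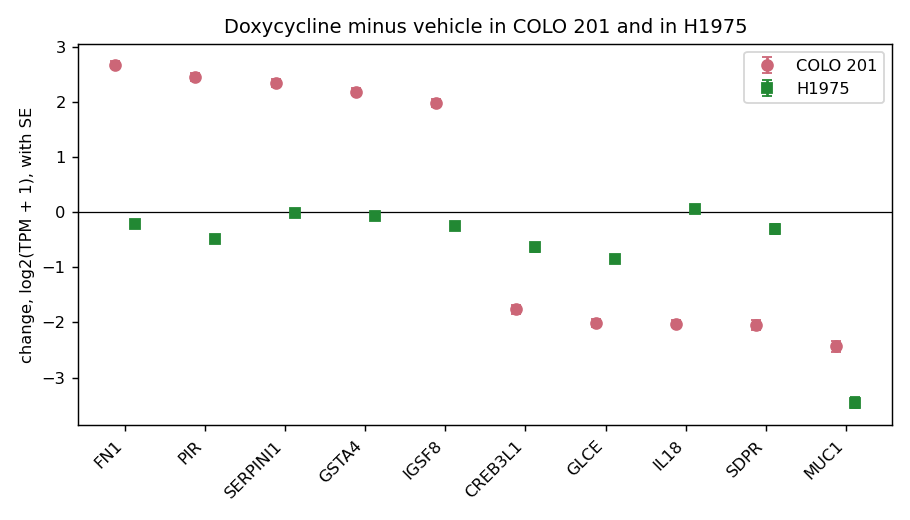
Change with doxycycline (vertical axis, log2(TPM + 1), with SE) in COLO 201 (circles) and H1975 (squares). The genes are the 5 rising and 5 falling of largest change in COLO 201, called with separate arms and tested in both lines. MUC1 lies low in both lines, and FN1 lies at 2.69 in COLO 201 and -0.22 in H1975.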

How the data were processed

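RNA of COLO 201 cells had been sequenced from stranded, polyadenylated libraries, per the labels' protocols. STAR, DESeq2 and the build GRCh38 are named in the submitters' processing notes, with no versions and no role. The authors deposited TPM per gene symbol in 1 table per line. Labels name the line of each sample, and column headings give its arm. Columns could not be tied to single samples. The members and gene lists were chosen with earlier results of these data known.

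Testing used limma 3.58.1 (R 4.3.3), two-sided, with a trended variance prior, for genes whose 6 columns averaged at least 1 TPM. The scale was log2(TPM + 1), and p-values were adjusted by Benjamini-Hochberg across all genes tested. The fit was repeated after each column was divided by its median ratio to the geometric mean of the columns. H1975 entered a joint model with 4 means. The code was tested on simulated data. Named genes are MUC1, MICA, MICB and RAB27A, the neighbours of MUC1 and marker genes of the cell type. Others are the 12 rising and 12 falling of largest change, among called genes whose arms did not overlap. The rest are the 5 most abundant called each way and up to 5 members per list of smallest adjusted p. Members that complete a count of 5 or fewer (ULBP1, ULBP2, ATG5, BECN1, CALR, PDIA3, BMI1, PHC3, PMAIP1 and BCL2L1) and PSMB8 and PSMB10 were picked after their values were seen. Some items are not reported here. Older symbols were matched through RefSeq synonyms. Promoter windows are RefSeq's (GRCh38.p14), aligned with Biopython 1.88. Alternatives were pseudocounts of 0.1 and 5, no minimum and a minimum of 5 TPM, rescaling, a table stripped of mitochondrially encoded genes, a fit with no trend, a block for column numbers, and each column left out. A rule asking for calls on both scales and one asking for at least 2-fold in TPM + 1 were chosen after seeing the data.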

Additional observations from a re-analysis of the deposited data

Results flagged for a closer look

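For 10 genes the change in COLO 201 differed from that in H1975 in a joint limma fit, as the test of the difference itself, with Benjamini-Hochberg adjustment over genes tested in both lines. Each value is the change in COLO 201 minus the change in H1975 on the log2(TPM + 1) scale. The difference was 2.90 for FN1, 2.94 for PIR, 2.36 for SERPINI1, 2.26 for GSTA4 and 2.22 for IGSF8. It was -2.08 for IL18, -1.74 for SDPR, -1.17 for GLCE and -1.13 for CREB3L1. The difference for SDPR is in part set by its low level in H1975, 1.61 TPM with vehicle. For MUC1 it was 1.03, since the fall in H1975 was the larger (adjusted p = 3.6e-05). The adjusted p lay between 1.5e-12 for FN1 and 3.6e-05 for MUC1.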

How the results depend on the processing

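With the columns rescaled by median ratio, 3153 genes were higher and 3435 lower, against 5312 and 1740 as deposited. Requiring a change of at least 2-fold in TPM + 1 left 194 of the 7052 calls. Other settings gave 6062 to 7405 calls, and 6077 to 7202 with a column left out. With the replicate block, the column number as a block, 7759 genes were called in place of 7052, and the calls of all 283 named genes tested for it were unchanged. The deviations of same-numbered columns correlated at -0.05, 0.15 and 0.28, and with 1 of them under 0.1 the columns were not treated as paired. A second principal component (6.75% of the variance) ordered the column numbers alike in both arms, so a shared effect of the number remains possible. The comparison with H1975 gave 3259 to 5485 differences against 4175, and 3435 to 4652 with a column left out. Of the named genes 260 kept direction and side of the threshold after rescaling, and 4 changed sign. ADAM17, at 0.02 as deposited, was at -0.11 rescaled and -0.046 without mitochondrially encoded genes, and between -0.00770 and 0.057 with a column left out. ADAM9 was at -0.099 and -0.035 under the same 2 settings and FDPS at -0.076 and -0.010. TAGLN was at -0.024 rescaled and between -0.0253 and 0.125 with a column left out. Rescaling lowered the changes of all genes by a median of 0.127 (0.0861 to 0.132 from the 5th to the 95th percentile). That is more than the deposited change of any of these 4. The causes of that shift and of the sign changes with a column left out were not tested. TPM without read totals do not show how depth limits the low genes.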
